A study of Drosophila melanogaster with 12 samples.

Results

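ATP synthase is the rotary enzyme of the inner mitochondrial membrane that makes ATP from ADP and phosphate with the energy of the proton gradient. Its soluble head is a ring of alternating alpha and beta subunits, with the catalytic sites mainly on beta. The central stalk (gamma, delta and epsilon) turns inside the head together with a membrane ring of c subunits, while a peripheral stalk (OSCP, b, d and F6) keeps the head from turning. In flies, as in other animals, all of these are encoded in the nucleus and translated by cytosolic ribosomes, and only subunits a and A6L are encoded in mitochondrial DNA.

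The 10 genes described here were chosen by name, as the identifiers that matched the symbols blw (alpha), ATPsynbeta, ATPsyngamma, ATPsyndelta, ATPsynO (OSCP), ATPsynB, ATPsynD, ATPsynCF6 (F6), ATPsynC and ATPsynG. They are 10 of the 17023 FlyBase identifiers in the files. The rule uses names alone, but the genes were proposed, and grouped as below, with earlier results of these data known. All 10 passed the filter on low counts, which left 9024 genes tested. The contrast followed throughout is between the 2 subunits of the catalytic head, alpha and beta, and the other 8.

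Messenger RNA was sequenced from S2 cells, an established Drosophila melanogaster line of embryonic origin that resembles hemocytes, the blood cells of the fly. The cells had been given 1 µg of double-stranded RNA (dsRNA), targeting either GFP, as control, or porthos (CG9253, symbol pths), which encodes a DEAD-box RNA helicase. They were passaged after 48 h and collected 3 days later, and all cells, controls included, were held in 100 µg/ml cycloheximide for 3 min before lysis. Per the labels, the lysis buffer contained the magnesium chelator EDTA and the gradient buffer contained magnesium. EDTA takes ribosomes off mRNA, so if that entry is right the gradient fractions may hold mRNA without intact polysomes; the labels do not show whether it is a slip, and "polysome" below is the label of the fraction. A share of 20% of each lysate was set aside as input and the rest was run on a 10 to 50% sucrose gradient to obtain polysomes, the mRNAs that carry several ribosomes. Input RNA was purified with TRIzol and polysome RNA with phenol and chloroform, so that the way of extraction and the kind of fraction cannot be told apart. There were 4 groups of 3 libraries, one for each fraction under each dsRNA. Replicates are numbered in the labels without saying that they are separate cultures, so the p-values measure the spread between these libraries, which may be technical.

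Input libraries held 9648377 to 11918941 counts and polysome libraries 7559406 to 9453365. A floor of 3 counts, which covers counting error only, lay between 0.262 and 0.383 CPM (counts scaled to a common library total), far under every member. The mRNA of pths fell by 1.11 on the log2 scale in input and by 1.46 on polysomes with porthos dsRNA, and its 6 porthos libraries lay under its 6 GFP libraries. Replicate 3 of the polysome porthos group stood apart: its score on principal component 2, which held 17.7% of the variance, was -47.8, where the other 11 libraries lay between -2.27 and 13.7, and it had a count for 10377 genes against 11485 to 11864. Results that rest on it are given with and without it. Of 8 markers of plasmatocytes, the phagocytic hemocytes, 7 passed the filter on low counts, and NimC1, with 0.810 ± 0.154 CPM in control input (SD, n = 3), did not. The 8 summed to 779 to 1691 CPM over the 12 libraries. The 4 neuron markers summed to 79.7 to 164 CPM, most of it elav (137 ± 11.2 CPM in control input), and the highest sums of the muscle, fat body and testis markers were 15.4, 8.48 and 31.9 CPM. Changes are relative to the average mRNA, by TMM scaling. Scaling by library size alone moved the median of all genes by 0.13 in the polysome against input comparison with GFP dsRNA. It also moved the share of higher genes among those called from 61.2% to 45.1% for porthos against GFP on polysomes, from 77.8% to 37.5% for the difference between the changes in polysomes and input, from 47.9% to 60.2% for polysome against input with GFP dsRNA, and from 49.5% to 60.9% with porthos dsRNA.

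The genes are scattered over the genome. Coordinates are from an Ensembl annotation of the dm6 assembly, counted from 1, and coding lengths are those of its canonical transcript. In the catalytic head, blw lies on chromosome 2R (22799099 to 22802180, plus strand) with a coding length of 1659 bp, and ATPsynbeta on chromosome 4 (1031484 to 1034917, plus strand) with 1536 bp. These were the longest coding sequences of the 10. In the central stalk, ATPsyngamma lies on chromosome 3R (29747704 to 29749163, minus strand; coding length 894 bp) and ATPsyndelta on chromosome X (10212970 to 10217393, plus strand; 474 bp). In the peripheral stalk, ATPsynO lies on 3R (15265591 to 15266690, plus strand; 630 bp), ATPsynB on 3L (9729999 to 9731224, plus strand; 732 bp), ATPsynD on 3R (19095000 to 19096271, plus strand; 537 bp) and ATPsynCF6 on 3R (23355220 to 23356064, minus strand; 321 bp). In the membrane, ATPsynC, the subunit of the proton-carrying ring, lies on 3R (31216145 to 31219630, minus strand; 417 bp) and ATPsynG, a small subunit beside the ring, on 2L (10975522 to 10976399, minus strand; 300 bp). Exons of 3 members overlap those of another gene read in the opposite direction, and the strand setting of the counting is not given in the sources used here. ATPsynbeta shares 191 bp with CG11076, whose own change with porthos dsRNA did not pass the test in input (-0.06 ± 0.07 on the log2 scale, SE) or on polysomes (-0.07 ± 0.07). ATPsyndelta shares 1358 bp with CG2962, which was listed at 0 in all 12 libraries, and ATPsynO shares 7 bp with CG14864. An intron of ATPsynC holds RNaseP:RNA, a non-coding RNA on the same strand.

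In control input, ATPsynbeta was the most abundant member mRNA and blw was in the middle of the order. Per kb of exon, ATPsynbeta had 742 ± 30.4 CPM (SD, n = 3), ATPsynC 474 ± 1.73, ATPsynCF6 314 ± 4.01 and ATPsyngamma 299 ± 33.8. Next came blw with 238 ± 18.5 CPM per kb, ATPsynD with 182 ± 15.0, ATPsynG with 137 ± 5.79, ATPsynB with 116 ± 15.1, ATPsynO with 100.3 ± 7.22 and ATPsyndelta with 22.7 ± 1.46. Neighbours in this order did not overlap between libraries, except ATPsynCF6 with ATPsyngamma and ATPsynB with ATPsynO. The low value of ATPsyndelta rests on an exon length of 3817 bp, most of it an annotated 3′ UTR of 3232 bp whose use in these cells was not measured. The beta mRNA outnumbered the alpha mRNA in all 12 libraries on the same per-length scale. The ratio of beta to alpha was 3.13 ± 0.18 in control input and 3.12 ± 0.22 in input with porthos dsRNA. It was 2.83 ± 0.30 on control polysomes and 3.20 ± 0.11 on porthos polysomes, with libraries of all 4 groups overlapping. Together the 10 mRNAs took 0.407% to 0.461% of all counts in input libraries and 0.572% to 0.650% in polysome libraries.

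**Figure D1:**
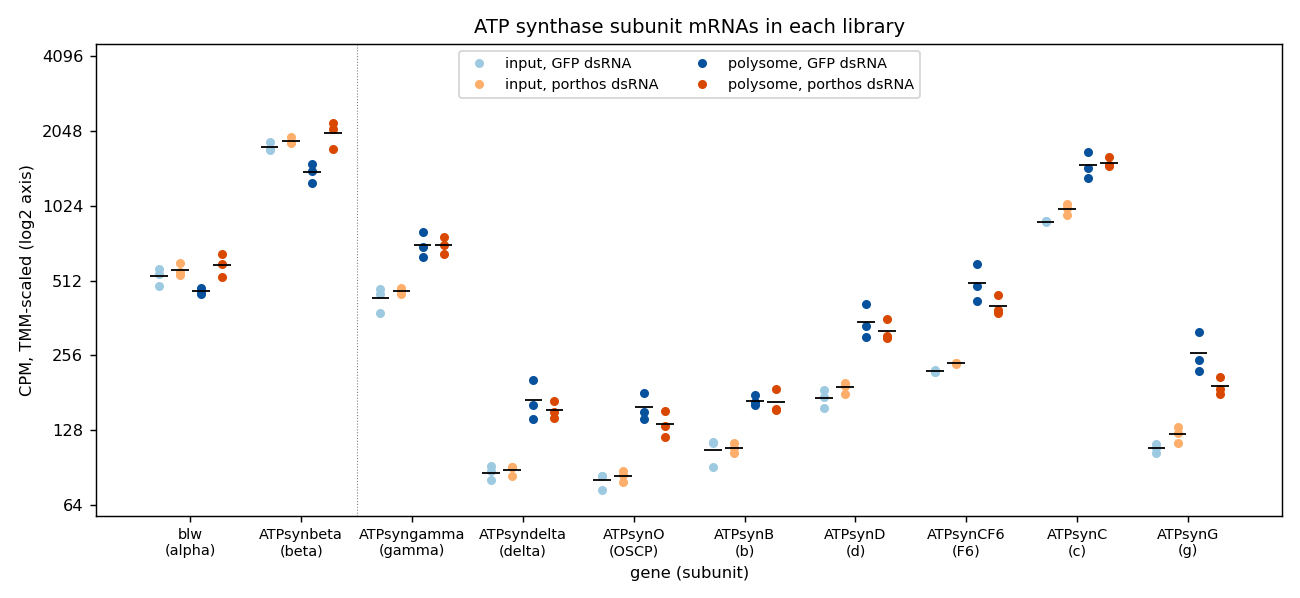
TMM-scaled CPM (log2 axis) of the 10 subunit genes in each of the 12 libraries; points are libraries, bars are means of 3, and the dotted line separates alpha and beta from the other 8. The 8 genes on the right lie higher in polysome than in input libraries with either dsRNA, while alpha and beta lie lower with GFP dsRNA and overlap with porthos dsRNA, and on polysomes beta has 1267 to 1515 CPM with GFP dsRNA and 1744 to 2205 CPM with porthos dsRNA.

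The first comparison concerned loading onto polysomes in control cells. The 8 other subunit mRNAs were higher on polysomes than in input, and those of the catalytic head were lower. ATPsynbeta had 1734, 1855 and 1724 CPM in the control input libraries of replicates 1, 2 and 3, and 1267, 1415 and 1515 CPM in the polysome libraries. For blw these values were 547, 569 and 488 CPM in input and 468, 478 and 455 CPM on polysomes. Every polysome library was thus under every input library for both genes, as in 33.1% of all genes tested, although blw is separated by little. The log2 difference between polysome and input was -0.34 ± 0.08 for ATPsynbeta (SE; edgeR's quasi-likelihood test, adjusted p = 0.0012) and -0.20 ± 0.08 for blw (adjusted p = 0.045). Scaled by library size alone, which shifts all genes up, ATPsynbeta had -0.21 and still passed, and blw had -0.07 and did not pass. The call on blw was also lost in 9 of the 12 fits that each left out 1 library, with values from -0.19 to -0.12: without replicate 1 or 2 of control input, any replicate of porthos input, any replicate of control polysomes, or replicate 1 of porthos polysomes.

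ATPsynG and ATPsynCF6, the members with the shortest coding sequences, had the highest loading. ATPsynC, the next in coding length, was under ATPsynD, ATPsynO and ATPsyndelta. ATPsynG had 113, 108 and 103 CPM in control input and 318, 245 and 221 CPM on control polysomes. ATPsynCF6 had 224, 220.4 and 219 CPM in input and 597, 489 and 423 CPM on polysomes. In both, polysome replicate 1 was the highest library and no polysome library came near an input library. The log2 difference was 1.27 ± 0.10 for ATPsynG (adjusted p = 3.8e-10) and 1.19 ± 0.09 for ATPsynCF6 (adjusted p = 3.6e-10). The d subunit gene ATPsynD had 1.02 ± 0.10, the OSCP gene ATPsynO 0.98 ± 0.09 and ATPsyndelta of the central stalk 0.97 ± 0.10. The c-ring gene ATPsynC had 0.75 ± 0.08, ATPsyngamma 0.71 ± 0.09 and ATPsynB 0.65 ± 0.09. All 8 passed the test, with the lowest of their polysome libraries above the highest of their input libraries, as in 31.3% of all genes. Among all genes tested 55.4% were called in this comparison, 26.5% as higher and 28.9% as lower on polysomes, with a median of 0.01. The median of the 8 was 0.97, and each of them was above the value of at least 86.7% of tested genes.

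In the lysate, none of the 10 mRNAs passed the test for a change with porthos dsRNA in edgeR, where 1.72% of all genes were called. ATPsynC came nearest, with 887, 888 and 882 CPM in control input and 946, 1003 and 1047 CPM in porthos input. Its porthos libraries all lay above its control libraries, and its log2 difference of 0.17 ± 0.08 did not pass (adjusted p = 0.32; unadjusted p = 0.039). ATPsynG (0.19 ± 0.10) and ATPsynCF6 (0.11 ± 0.09) also had all porthos libraries above all control libraries, which held for 12.9% of the genes tested. For blw the difference was 0.09 ± 0.08 (95% interval -0.08 to 0.25) and for ATPsynbeta 0.08 ± 0.08 (-0.09 to 0.25). The other 5 lay between 0.03 (ATPsynB) and 0.14 (ATPsynD), with interval bounds from -0.17 to 0.34. All 10 differences were above 0, with a median of 0.09 against 0.00 for all genes. Since whole cultures were lysed, a change in how many cells carry an mRNA and a change in its amount per cell cannot be told apart. DESeq2 also called 0 of the 10, while a fit restricted to the 6 input libraries called ATPsynC higher (0.17). That restricted fit called 691 of all genes, where the main fit called 155.

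On polysomes with porthos dsRNA, the catalytic pair rose, while ATPsynG and ATPsynCF6 fell. ATPsynbeta, which carries the catalytic sites, had 1267, 1415 and 1515 CPM in the control polysome libraries and 2093, 1744 and 2205 CPM in the porthos libraries. blw had 468, 478 and 455 CPM against 595, 531 and 656 CPM. In both genes every porthos library exceeded every control library, as in 16.2% of all genes tested, and porthos replicate 2 was the lowest of its group. ATPsynbeta rose 1.44-fold, by 0.53 ± 0.08 on the log2 scale (SE; edgeR, adjusted p = 0.00013), and blw rose 1.27-fold, by 0.35 ± 0.08 (adjusted p = 0.0046). Without porthos replicate 3, the library that stood apart, ATPsynbeta still passed with 0.43 and blw, with 0.25, did not.

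The 2 members that fell were the ones with the shortest coding sequences among the members. ATPsynG had 318, 245 and 221 CPM on control polysomes and 179, 209 and 188 CPM on porthos polysomes. ATPsynCF6, of the peripheral stalk, had 597, 489 and 423 CPM on control and 389, 447 and 379.6 CPM on porthos polysomes. For ATPsynG the porthos libraries all lay lower, as in 13.4% of all genes, whereas for ATPsynCF6 porthos replicate 2 exceeded control replicate 3. ATPsynG fell by 0.45 ± 0.10 on the log2 scale (adjusted p = 0.0033) and ATPsynCF6 fell by 0.31 ± 0.09 (adjusted p = 0.022). ATPsynG kept its call without any single library, with values from -0.58 to -0.29. ATPsynCF6 lost its call without control replicate 1 (-0.19), without porthos replicate 1 (-0.30) or 3 (-0.29), and with the polysome libraries fitted alone (-0.31). It also lost it with a trend on exon length (-0.15) or coding length (-0.07) removed, as described below. ATPsynG lost its call with the coding length trend removed (-0.19).

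The remaining 6 did not pass. ATPsynO, which joins the peripheral stalk to the head, had 181, 152 and 142 CPM on control and 133, 154 and 120.2 CPM on porthos polysomes. Its groups overlapped and its difference was -0.22 ± 0.09 (adjusted p = 0.087, 95% interval -0.41 to -0.04). It passed as lower without control replicate 3 (-0.33), without porthos replicate 2 (-0.34), with scaling by library size (-0.26), with no filter on low counts (-0.24) and with replicate number as a block (-0.22). ATPsyndelta had -0.14 ± 0.10 (95% interval -0.33 to 0.06), and passed as lower without control replicate 3 (-0.28). ATPsynD had -0.12 ± 0.10 (-0.32 to 0.08), ATPsynB -0.02 ± 0.09 (-0.20 to 0.16) and ATPsyngamma -0.00 ± 0.09 (-0.19 to 0.18). ATPsynC, the ring subunit, had 0.04 ± 0.08 (-0.13 to 0.20). In all, 2 of the 10 members rose and 2 fell, where 18.4% of all genes were called, 11.2% as higher and 7.14% as lower. The median of the 8 subunits outside the catalytic pair was -0.13, against -0.00 over all genes. Of the 8, 7 were below 0, where 4562 of the 9024 genes tested were. ATPsyndelta, ATPsynD, ATPsynCF6, ATPsynC and ATPsynG have coding lengths under 600 bp, and all tested genes of that class had a median of -0.19. ATPsyngamma, ATPsynO and ATPsynB lie in the class of 600 to 1500 bp, whose median was -0.01. Some plasmatocyte markers also moved. Hml, Pxn and eater rose with porthos dsRNA both in input (by 1.00 ± 0.12, 1.18 ± 0.13 and 0.94 ± 0.13) and on polysomes (by 0.77 ± 0.13, 1.11 ± 0.14 and 1.15 ± 0.15). Col4a1 rose on polysomes with overlapping libraries (0.30 ± 0.10, adjusted p = 0.046) and had 0.00 ± 0.10 in input, while srp, vkg and Ppn passed in neither fraction. The sum over the 8 markers, most of it Col4a1 and vkg, was 779 to 930.0 CPM on control and 936 to 1140 CPM on porthos polysomes, and 1292 to 1526 and 1405 to 1691 CPM in the input groups. Of the testis markers, bam rose in input (0.73 ± 0.16) and on polysomes (0.70 ± 0.17), and twe passed in neither fraction. The part of all these markers in the subunits' changes was not tested.

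**Figure D2:**
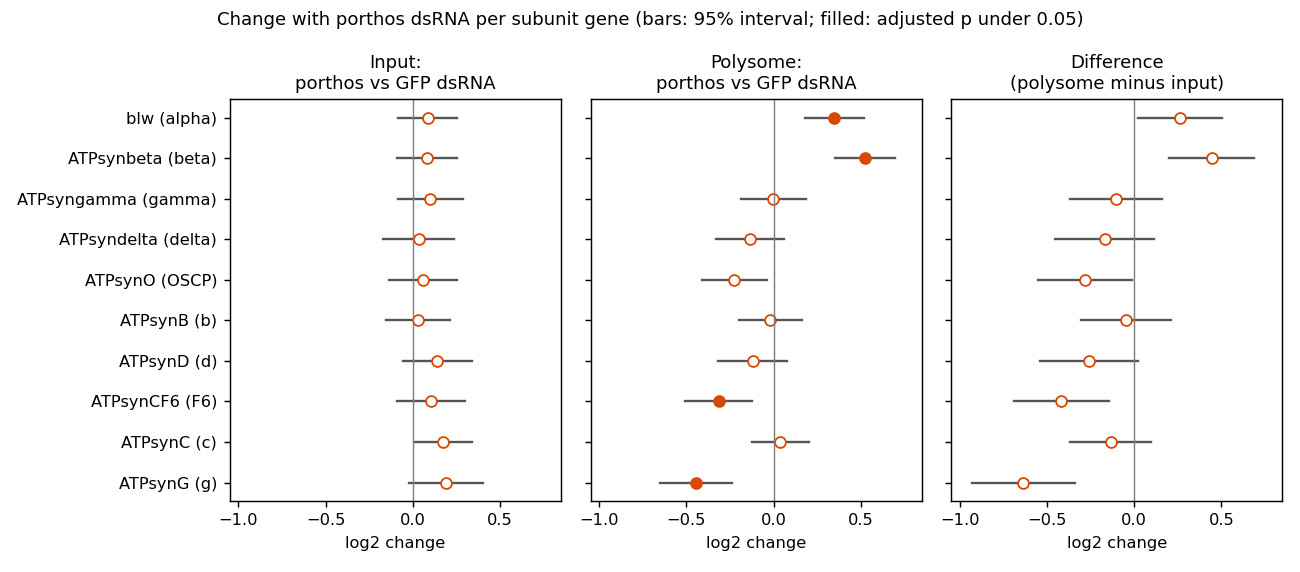
Log2 change with porthos dsRNA per gene in input, on polysomes, and the difference between these changes, from edgeR; lines are 95% intervals and filled points have an adjusted p under 0.05. On polysomes alpha and beta are filled above 0, F6 and g are filled below 0, and no point is filled in input or in the difference, which is fitted without pairing libraries by lysate.

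The difference between the change on polysomes and the change in input, fitted as an interaction term, asks whether a gene moved on polysomes beyond its change in the lysate. The answer depended on the settings of the fit, among them whether input and polysome libraries were paired. In the main fit, which has no pairing, none of the 10 passed, where 9 of all genes (0.0997%) did, 0.0776% as higher and 0.0222% as lower. An unadjusted p under 0.05 was found for 5 of the 10 and for 15.0% of all genes. Each input was a share of a lysate that was also run on the gradient, but the labels do not say that equal replicate numbers mark 1 lysate. With libraries of equal treatment and number taken as 1 lysate, 2.52% of all genes were called, 1.94% as higher and 0.576% as lower. ATPsynbeta was then called higher (0.44, adjusted p = 0.029), and ATPsynCF6 (-0.41, adjusted p = 0.049) and ATPsynG (-0.62, adjusted p = 0.0057) were called lower. In the main fit, the estimates for alpha and beta were above 0 and those for the other 8 were below 0. ATPsynbeta had 0.44 ± 0.12 (adjusted p = 0.088, 95% interval 0.20 to 0.69) and blw 0.26 ± 0.12 (adjusted p = 0.28, 0.02 to 0.50). ATPsynG had -0.64 ± 0.14 (adjusted p = 0.052, -0.93 to -0.34) and ATPsynCF6 -0.42 ± 0.13 (adjusted p = 0.13, -0.69 to -0.15). The other 6 lay between -0.28 (ATPsynO) and -0.05 (ATPsynB). The calls on ATPsynbeta, ATPsynCF6 and ATPsynG were also made with DESeq2 and with no filter on low counts. These fits called 253 and 243 of all genes. The calls were made too when replicate 3 of control polysomes or replicate 2 of porthos polysomes was left out, where 79 and 694 of all genes were called. Without porthos polysome replicate 3 the values were 0.36 for ATPsynbeta, -0.40 for ATPsynCF6 and -0.64 for ATPsynG, and none passed.

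In porthos-depleted cells the same 8 mRNAs were higher on polysomes than in input, and neither subunit of the catalytic pair passed the test. Of all genes 47.8% were called in this comparison, 23.7% as higher and 24.1% as lower. In all 8 the polysome libraries lay above the input libraries, as in 25.6% of all genes, with 26.4% the other way. The 8 log2 differences lay between 0.61 (ATPsynB and ATPsyngamma) and 0.80 (ATPsyndelta), with 0.64 ± 0.10 for ATPsynG and 0.77 ± 0.09 for ATPsynCF6. ATPsynbeta had 0.10 ± 0.08 (95% interval -0.07 to 0.27) and blw 0.07 ± 0.08 (-0.10 to 0.23). ATPsynbeta passed as higher when porthos polysome replicate 2 was left out (0.20), and without porthos replicate 3 it had 0.03 and blw -0.02. ATPsynG had the highest estimate of the 10 with GFP dsRNA, and with porthos dsRNA its estimate lay under those of ATPsyndelta, ATPsynCF6, ATPsynD (0.76) and ATPsynO (0.70). The order within each treatment was not tested, and those 4 lay within about 1 SE of each other. The spread of the 10 loading values (SD among genes) was 0.55 in control cells and 0.26 after porthos dsRNA, and over all genes it was 0.57 and 0.49.

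**Figure D3:**
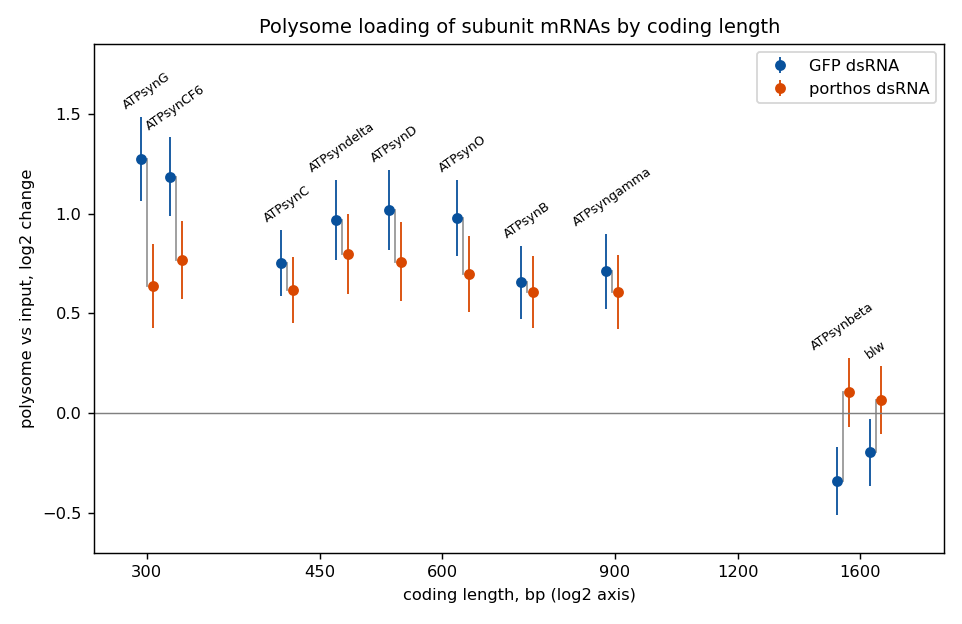
Log2 difference between polysome and input for each gene against its coding length in bp (log2 axis), with GFP dsRNA (blue) and porthos dsRNA (orange) drawn slightly apart; error bars are 95% intervals and grey lines join the values of a gene. The values fall from 1.27 for ATPsynG to -0.34 for ATPsynbeta with GFP dsRNA, and span 0.07 to 0.80 with porthos dsRNA.

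The abundance order on polysomes differed from that in input. On control polysomes ATPsynC (798 ± 99.4 CPM per kb) and ATPsynCF6 (715 ± 125) were above ATPsynbeta (586 ± 52.2), with overlapping libraries between neighbours. On porthos polysomes ATPsynbeta was first again with 844 ± 101 CPM per kb, overlapping ATPsynC at 819 ± 35.1, and ATPsynCF6 had 575 ± 51.9. The alpha gene blw was at rank 7 on control polysomes (207 ± 5.24 CPM per kb) and at rank 6 on porthos polysomes (264 ± 27.9). At the low end, ATPsyndelta had 44.3 ± 8.24 and 40.3 ± 3.27 CPM per kb on control and porthos polysomes.

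The balance between the catalytic pair and the other 8 subunits was read in each library as the mean log2 CPM of alpha and beta minus the mean of the 8. In control input it was 2.37, 2.45 and 2.45 in replicates 1, 2 and 3, and in porthos input 2.36, 2.39 and 2.46. On control polysomes it was 0.94, 1.29 and 1.43, and on porthos polysomes 1.90, 1.48 and 2.01. Input libraries overlapped completely, and each polysome library was below each input library. Porthos polysome libraries were above control ones, but the nearest of them, control replicate 3 and porthos replicate 2, were close to each other. The mean moved by -0.02 between the input groups and by 0.58 between the polysome groups (pooled SD 0.27, n = 3 each), and by 0.47 without porthos replicate 3. Leaving out any single polysome library gave 0.44 to 0.74. From input to polysomes the balance moved by -1.20 in control and by -0.60 in porthos-depleted cells. These values repeat the single-gene results in another form and carry no test of their own.

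Polysome loading of the members fell with coding length, as did that of genes in general. Across the 10 genes, which share all 12 libraries and are not independent replicates, Spearman's rho between coding length and polysome loading was -0.87 in control cells and -0.73 in porthos-depleted cells. Across the 8418 tested genes with a coding length it was -0.73 and -0.72. For the change on polysomes with porthos dsRNA, rho was 0.77 across the 10 members and 0.26 across all genes, and for the change in input -0.54 and 0.02. Tested genes with a coding length under 600 bp (1155 genes) had a median polysome change of -0.19, those from 600 to 1500 bp (3361 genes) -0.01 and those of 1500 bp or more (3902 genes) 0.06. On control polysomes the loading medians of these classes were 0.77, 0.22 and -0.34. ATPsynC (0.75) and ATPsynbeta (-0.34) thus had loading values near the median of their class, and the other members were above theirs. In the shortest class these were ATPsynG (1.27), ATPsynCF6 (1.19), ATPsynD (1.02) and ATPsyndelta (0.97). In the middle class they were ATPsynO (0.98), ATPsyngamma (0.71) and ATPsynB (0.65), and in the longest blw (-0.20). The classes are broad, and ATPsynG (300 bp) and ATPsynCF6 (321 bp) have the shortest coding sequences of the members.

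The same trend differed between polysome libraries. The slope of log2 CPM, as deviation from the gene's mean over libraries, per doubling of coding length was computed in each library over 8408 genes that are not members. It was 0.150 to 0.163 in the 6 input libraries, without separation of the treatments. On control polysomes it was -0.251, -0.156 and -0.159 in replicates 1, 2 and 3, and on porthos polysomes -0.140, -0.143 and -0.0927. The slope was therefore less steep in each porthos library than in each control library, and control replicate 1 and porthos replicate 3 were the extremes. These were also the polysome libraries with the lowest and the highest balance of alpha and beta over the other 8. With a smooth trend on coding length taken out of each library, an alternative chosen after seeing the data, ATPsynbeta (0.46) and blw (0.28) still passed as higher on porthos polysomes. ATPsynCF6 (-0.07) and ATPsynG (-0.19) did not pass, and ATPsynC passed as higher (0.23). With the trend on exon length instead, ATPsynG kept its call and ATPsynCF6 (-0.15) lost it. With the coding-length trend removed, the loading of ATPsynC on control polysomes became 0.01 and did not pass, and on porthos polysomes those of ATPsynC (0.07), ATPsynCF6 (0.14) and ATPsynG (-0.01) did not pass. With the exon-length trend removed, ATPsynB lost its loading call on control (0.10) and porthos (0.17) polysomes and ATPsynG on porthos polysomes (0.15). What part the trend has in the members' changes was not tested.

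**Figure D4:**
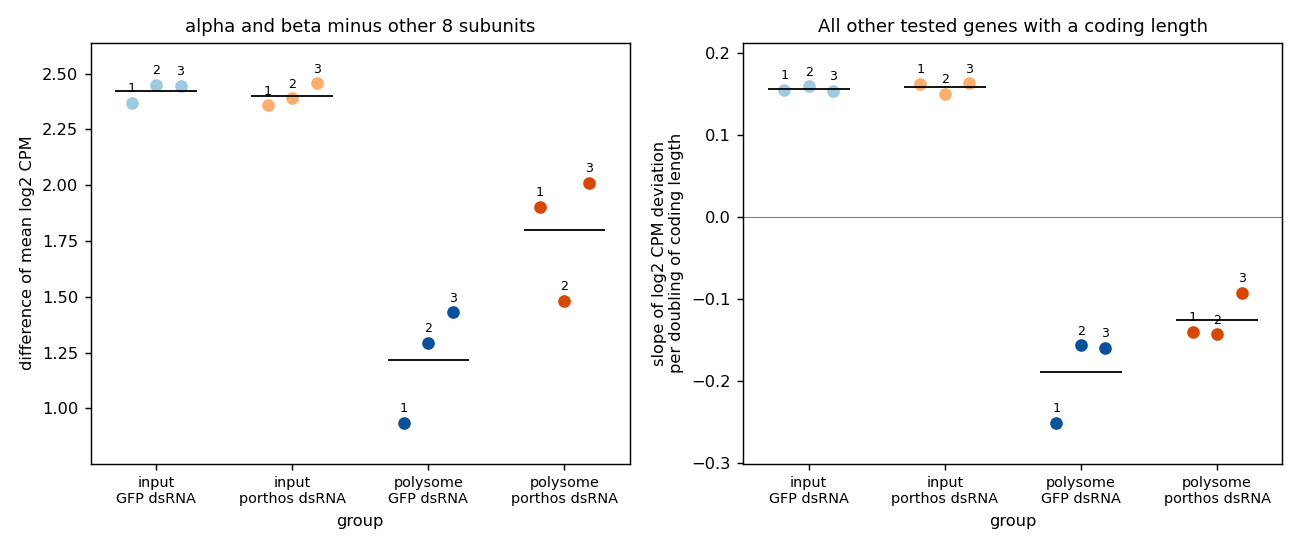
Left, mean log2 CPM of alpha and beta minus that of the other 8 subunits in each library; right, slope of log2 CPM deviation per doubling of coding length over 8408 other genes in the same libraries, with replicate numbers at the points and bars at group means. The input libraries lie together in both panels, and on polysomes the porthos libraries lie above the control libraries in both.

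All 3 other nuclear subunit genes that were tested were higher on control polysomes than in input. With porthos dsRNA, 2 of them fell on polysomes. Over all genes tested, 26.5% were called higher in the former comparison and 7.14% lower in the latter. Tested genes with a coding length under 600 bp had medians of 0.77 and -0.19 in these comparisons. The genes of subunits epsilon (sun), e (ATPsynE) and f (ATPsynF) all passed as higher on control polysomes than in input, with 1.08 ± 0.10, 1.20 ± 0.11 and 0.97 ± 0.11. Of 20 alternatives, these loading calls were made in 18, 19 and 18, with lowest values of -0.04, 0.19 and 0.09. All 3 genes have coding lengths of at most 324 bp. With porthos dsRNA, ATPsynE fell on polysomes by 0.35 ± 0.11 (adjusted p = 0.031) and ATPsynF fell by 0.39 ± 0.11 (adjusted p = 0.015), while sun had -0.10 ± 0.09 (95% interval -0.29 to 0.10). ATPsynE had 526, 413 and 351 CPM on control and 333, 390.5 and 292 CPM on porthos polysomes, and ATPsynF had 210.3, 172 and 156 against 132, 164 and 115 CPM. In both genes the groups overlapped, through porthos replicate 2, and each call was made in 13 of 19 alternatives. Without porthos replicate 3 they had -0.27 and -0.30 and did not pass. Neither of them nor sun was called in input, where sun had 0.27 ± 0.10 (adjusted p = 0.18), or in the difference between the changes. The mitochondrially encoded subunits a and A6L (mt:ATPase6 and mt:ATPase8) were listed at 0 in all 12 libraries, as were all 37 genes of the mitochondrial genome in the files, and they were not analysed further.

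Genes named as copies of subunits were at low levels. ATPsynepsilonL, a like-named copy of the epsilon gene, had 11.5, 7.51 and 10.1 CPM on control polysomes and 26.6, 15.9 and 14.9 CPM on porthos polysomes, without overlap. It rose there by 1.00 ± 0.20 on the log2 scale (adjusted p = 0.0014), with 1.13 without porthos replicate 3, and passed in all 19 alternatives. In input it had 5.61, 5.48 and 5.72 CPM against 8.00, 10.6 and 9.35 CPM, also without overlap. The input difference of 0.73 ± 0.22 did not pass (adjusted p = 0.11), but passed in 3 of 19 alternatives. Its change on polysomes beyond that in input was 0.27, which was not called in the main fit and in 0 of 19 alternatives. ATPsynbetaL had 0.638 to 1.92 CPM and did not pass in any comparison. ATPsynGL and ATPsynCF6L were too low to be tested. Reads shared between near-identical copies could be split by the counting, whose handling of such reads is not given in the sources used here.

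Of the carriers that bring ADP and phosphate to the enzyme, sesB, the main ADP/ATP carrier, rose on porthos polysomes. It had 1621, 1775 and 1689 CPM on control and 1958, 2039.6 and 1999 CPM on porthos polysomes, which did not overlap. The rise was 0.24 ± 0.07 (adjusted p = 0.021). It passed in 13 of 19 alternatives, and without porthos replicate 3 the value was 0.22 and did not pass. sesB shares 102 bp of exon with Ant2, a second ADP/ATP carrier, which had -0.07 ± 0.13. The phosphate carrier Mpcp2 had 0.18 ± 0.07 (adjusted p = 0.062), and Mpcp1 was near the floor with 0.255 to 1.56 CPM.

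Over the 12 libraries, the genes most like the mean of alpha and beta by Pearson's r of log2 CPM, among 6627 genes with a mean of at least 10 CPM, were Idgf3 and CtsL1 (both 0.98), TSG101 (0.97), deltaCOP (0.96) and the identifier FBgn0038639 (0.96). Idgf3 encodes a secreted chitinase-like protein and CtsL1 a lysosomal protease. All 5 rose on porthos polysomes, by 0.28 to 0.72, a property that the choice by likeness favours. The genes most like the mean of the other 8 were Sod1, Tapdelta, COX7A, CG14683 and COX5A (r from 0.993 to 0.995). Sod1 encodes a superoxide dismutase, and COX7A and COX5A are subunits of cytochrome c oxidase, the last enzyme of the respiratory chain. Their coding lengths were 297 to 501 bp, apart from CG14683 with 1071 bp, and none was called on polysomes (log2 differences from -0.23 to -0.16).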

How the data were processed

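Each deposited file gives 1 library as raw, whole-number counts of reads per FlyBase gene, made by the authors. Per the submitters' processing notes, reads were handled with HISAT2 2.1.0 and featureCounts 1.4.6 on the dm6 build. How the counting treated strand and multiply mapped reads, and which annotation it used, is not given in the sources used here. Symbols were found for 16647 of 17023 identifiers in Ensembl's annotation of that build, the source of coordinates and lengths too.

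TMM-scaled CPM were derived from the deposited counts in edgeR 4.0.16 (R 4.3.3). After filterByExpr, the 12 libraries were fitted together by quasi-likelihood, with a term per group and 5 contrasts. Genes were called at a Benjamini-Hochberg adjusted p under 0.05 over the 9024 genes tested. The standard error (SE) of a log2 change is the change divided by the square root of F. Errors of CPM are SD over 3 libraries, and log2 CPM used a prior count of 1. The fit was also run on simulated counts with changes placed in the porthos polysome group. Of 1.4-fold changes it called 67.3% on polysomes and 36.7% in the difference, and of 2-fold changes 90.8% and 87.8%. The simulation gave all genes 1 common spread and held no length trend, unlike these data.

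Alternatives were DESeq2 1.42.0, scaling by library size, no filter, fits of the compared libraries alone, replicate number or lysate as a block, removal of a trend on exon or coding length, and each library left out. Genes named are the 10 members, the remaining subunits, copies and carriers found by symbol, and the 5 genes most like each mean. The members and lists were chosen with earlier results of these data known. No 2 replicates agreed within counting noise (lowest chi-square per degree of freedom 2.30). ATPsynDL, ATPIF1A and ATPIF1B, listed by symbol, found no match and were not analysed here. No sequences were used.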

Additional observations from a re-analysis of the deposited data

How the results depend on the processing

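The calls on the 8 mRNAs as loaded on control polysomes, on ATPsynbeta as lower there, and on ATPsynbeta as higher on porthos polysomes held in the alternatives run, except that ATPsynC lost its loading call with the coding length trend removed and ATPsynB with the exon length trend removed. In input, 155 genes were called in the whole table, and 244 with DESeq2, 264 without a filter, 234 without the coding length trend and 691 from the compared libraries alone, which added 1 member as higher. Leaving out 1 library gave 31 to 259. On polysomes, 1658 genes were called and 853 from the compared libraries alone, which kept 1 member as lower; the exon length trend also left 1 and the coding length trend 0. Leaving out 1 library gave 855 to 2383 genes, 1 to 2 members higher and 1 to 4 lower. For the difference between the changes, 9 genes were called, 16 with library-size scaling (1 member lower) and 3 without the coding length trend. DESeq2 called 253, no filter 243 and the lysate block 227, each with 1 member higher and 2 lower. Leaving out 1 library gave 0 to 694 genes, 0 to 1 members higher and 0 to 2 lower. On control polysomes against input, 1 member in place of 2 was lower with library-size scaling, no filter or either length trend removed, and 1 to 2 when 1 library was left out. On porthos polysomes against input, 4311 genes were called, 2639 without the exon length trend and 2167 without the coding length trend, which left 5 members higher; the exon length trend left 6. The causes were not tested. ATPsynGL and ATPsynCF6L had too few reads to be tested at this depth, whereas the lowest count of a member was 696 (ATPsynO). Values near 0 changed sign. On polysomes these were ATPsynC with library-size scaling (-0.0017), ATPsyngamma (0.0093) and ATPsynB (0.082) without the exon length trend, and ATPsyngamma (0.029), ATPsyndelta (0.030), ATPsynB (0.052) and ATPsynD (0.022) without the coding length trend. In the difference they were ATPsynB (0.074 without the exon and 0.020 without the coding length trend) and ATPsynC (0.059, coding), and in porthos loading ATPsynG (-0.0086, coding). With 1 library left out, the input value ranged from -0.015 to 0.075 for ATPsyndelta, -0.0015 to 0.094 for ATPsynO and -0.076 to 0.087 for ATPsynB. The polysome value ranged from -0.11 to 0.077 for ATPsyngamma, -0.28 to 0.0058 for ATPsyndelta, -0.13 to 0.017 for ATPsynB and -0.075 to 0.12 for ATPsynC. The difference ranged from -0.16 to 0.040 for ATPsynB, and porthos loading from -0.016 to 0.15 for blw.

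The labels say that inputs were shares of the lysates, but not that equal numbers mark 1 lysate, and replicate numbers were not taken as pairing the samples. The correlation of deviations between input and polysome libraries of equal treatment and number was 0.03 to 0.13 over 6 pairs. Among polysome libraries of its own treatment, each of the 6 input libraries correlated best with that of its own number. Libraries of different treatments cannot share a lysate. Porthos input replicates 2 and 3 still correlated better with a control polysome library of another number (0.078 and 0.077). With the porthos polysome library of their own number they had 0.030 and 0.034. With replicate number as a block, 39 genes were called in the difference, with 1 member lower, and the polysome value of ATPsyngamma was 0.00030.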
